A study of Mus musculus with 6 samples.

Results

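The collagen genes of C2C12 cells, an immortalised mouse myoblast line, were compared between proliferating cells and cells on day 6 of differentiation. Members were all genes whose array annotation carries a collagen chain symbol (Col, a number, a, a number) and which have at least 1 probe set annotated to that gene alone. This gave 42 genes on 82 probe sets, out of 18193 named genes and 45037 probe sets tested. Col6a6, Col21a1 and Col28a1 had no probe set of their own and were not analysed here. The 6 arrays (Affymetrix mouse genome arrays) were 3 of undifferentiated cells in 20% serum and 3 of cells differentiated in 2% horse serum, with no genetic change in either group. Each RNA sample was pooled over plates and over cultures set up on successive days, and p-values measure the spread between such pools. Differentiated cells were grown on gelatin, which is itself made from collagen protein, and the cultures held unfused cells beside the myotubes.

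A collagen molecule is a triple helix of 3 alpha chains, each encoded by its own gene. Fibrillar collagens form the cross-striated fibrils of connective tissue, type IV forms the sheet of basement membranes, type VI forms beaded filaments next to that sheet, and FACIT collagens bind to the surface of fibrils. In muscle, types I and III lie between fibres, types IV and VI surround each fibre, and mutations in the genes of the 3 main collagen VI chains cause congenital muscular dystrophy and Bethlem myopathy. Collagen VI is assembled from 1 chain each of Col6a1, Col6a2 and Col6a3 or a chain related to Col6a3.

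The labels were checked on marker genes at their brightest probe sets. All 7 myotube markers measured were higher in differentiated cells, among them Des, the muscle intermediate filament gene, with a log2 fold change of 0.82, and Acta1, skeletal actin, with 6.56. Tnnt3, a fast troponin T, was above background on only 1 of 3 undifferentiated arrays, so the size of its change is not given. All 5 cell division markers measured were lower, and 2 of 5 myoblast markers were higher. Within-group correlations of the arrays were between 0.937 and 0.942, and the array median signals were 68.0 to 73.0 in undifferentiated and 72.3 to 81.4 in differentiated cells.

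Of the 42 collagen genes, 6 passed the test as higher in differentiated cells and 2 as lower (limma, adjusted p under 0.05 over all 45037 probe sets, brightest probe set of each gene). Col6a1, Col6a2, Col3a1, Col4a2, Col4a5 and Col12a1 were higher, and Col6a3 and Col5a3 were lower. Over all named genes, 8.67% passed as higher and 9.05% as lower. The signals of the groups did not overlap in 12 of the 42 collagen genes and in 33.5% of all named genes. The median log2 fold change of the 42 genes was 0.11, beside 0.06 over all genes. A gene was taken as above background where its signal exceeded the brightest of 27 bacterial control probe sets on all 3 arrays of at least 1 group, a limit of 51.9 to 87.0 depending on the array. By this measure 21 of the 42 collagen genes were above background, beside 11219 of all 18193 named genes. Counted by probe set, 12 of 82 were higher and 3 lower, where 6.14% and 6.43% of all probe sets were. All fold changes are on the scale of log2(signal + 15), which understates the change of dim genes. In cultures measured in bulk, fewer cells of a type and less RNA per cell cannot be told apart.

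**Figure D1:**
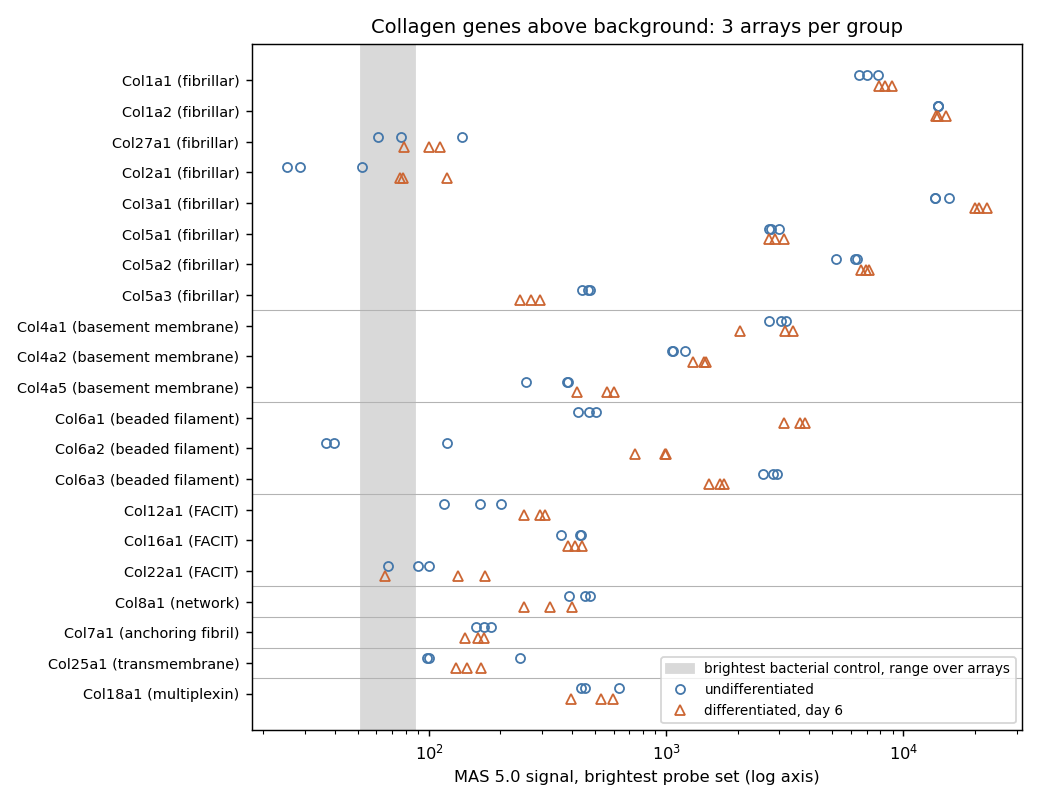
Signal of each of the 21 collagen genes above background at its brightest probe set (log axis), with 1 point per array for undifferentiated (circles) and differentiated (triangles) cells. The grey band is the range over arrays of the brightest bacterial control, 51.9 to 87.0. The groups of Col6a1 and Col6a2 lie far apart, and those of Col6a3 lie apart in the opposite order.

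Collagen VI held the largest changes of the family, and its chains did not move together. Col6a1 and Col6a3 had only 1 probe set each, so their changes could not be compared with a second one. Col6a1 read 425.3, 475.0 and 505.9 in undifferentiated cells and 3649.5, 3843.3 and 3149.1 in differentiated cells. Every differentiated array was several times above every undifferentiated one, and the ratio of the mean signals was 7.57. The log2 fold change was 2.88 (SE 0.11, adjusted p = 3.5e-09, limma).

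Col6a2 read 119.3, 36.9 and 39.6 in undifferentiated cells and 1000.8, 987.2 and 738.1 in differentiated cells. Background was exceeded on only 1 of the 3 undifferentiated arrays, which leaves the fold uncertain in size. The log2 fold change was 3.66 (SE 0.31, adjusted p = 4.6e-06, limma). A second Col6a2 probe set of nearly the same mean signal read 93.6, 233.9 and 261.5 before and 818.9, 783.0 and 718.9 after, a log2 fold change of 2.01 (SE 0.28, adjusted p = 0.00027). Both probe sets separated the groups, and they ordered the undifferentiated arrays differently.

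Col6a3 moved the other way. This gene encodes the longest of the main collagen VI chains, whose cleaved end is known as endotrophin. It read 2831.1, 2553.3 and 2929.7 in undifferentiated cells and 1681.6, 1752.4 and 1517.6 in differentiated cells. The groups did not overlap, and the log2 fold change was -0.74 (SE 0.10, adjusted p = 0.00018, limma). The related chains Col6a4 and Col6a5 were not above background on all arrays of either group. The 5 measured beaded filament genes thus gave 2 higher, 1 lower and 2 that did not pass.

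**Figure D2:**
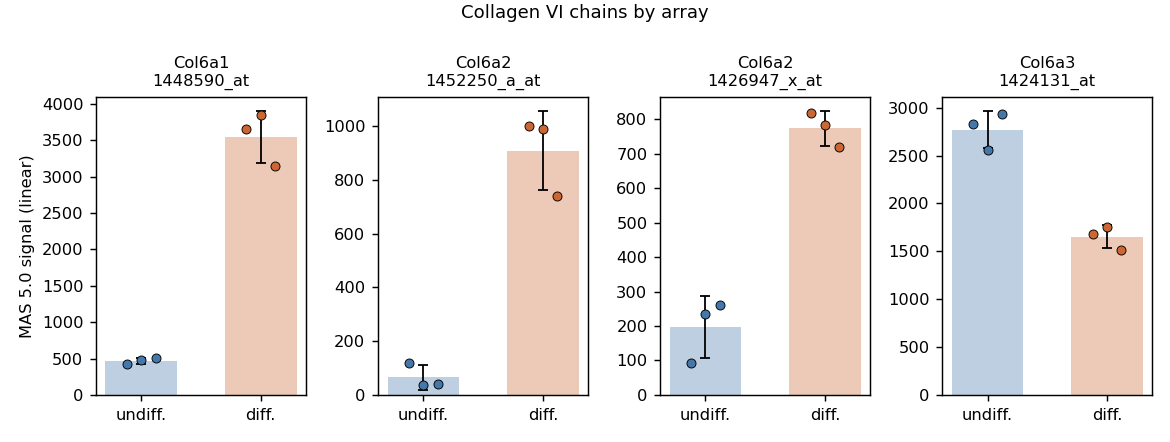
MAS 5.0 signal (linear axis, own scale in each panel) of the collagen VI probe sets above background, with points for arrays, bars for the mean of 3 arrays and error bars for the SD. Col6a1 and both Col6a2 probe sets were higher in differentiated cells, and Col6a3 fell from a mean of 2771 to 1651.

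Col6a1 and Col6a2 lie on the minus strand of chromosome 10, 85.2 kb apart, and Col6a3 lies on chromosome 1 (GRCm38.p6). The 250 bases before the start site of these 3 genes and of Col3a1, the brightest collagen gene here, are shown because the first 3 encode partner chains with different changes. They are RefSeq sequences, written 5′ to 3′ on the gene's strand. Capitals mark an E-box (CANNTG, the letters bound by MyoD and its relatives) or a GC box (GGGCGG on either strand).
Col6a1 (chr10:76726045-76726294, minus strand): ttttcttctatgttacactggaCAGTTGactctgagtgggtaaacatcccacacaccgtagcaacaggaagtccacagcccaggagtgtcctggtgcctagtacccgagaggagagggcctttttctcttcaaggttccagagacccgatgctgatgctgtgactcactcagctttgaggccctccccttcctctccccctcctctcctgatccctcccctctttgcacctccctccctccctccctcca
Col6a2 (chr10:76623631-76623880, minus strand): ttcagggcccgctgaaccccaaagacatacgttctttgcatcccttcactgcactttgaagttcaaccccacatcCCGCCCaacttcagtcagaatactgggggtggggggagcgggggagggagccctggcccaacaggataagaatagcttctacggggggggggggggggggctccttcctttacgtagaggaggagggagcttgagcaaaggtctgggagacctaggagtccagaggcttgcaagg
Col6a3 (chr1:90843972-90844221, minus strand): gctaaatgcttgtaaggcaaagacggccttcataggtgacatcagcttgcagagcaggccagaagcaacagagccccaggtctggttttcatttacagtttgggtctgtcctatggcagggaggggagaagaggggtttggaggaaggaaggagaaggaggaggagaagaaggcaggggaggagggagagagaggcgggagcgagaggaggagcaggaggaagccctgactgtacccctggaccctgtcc
Col3a1 (chr1:45311288-45311537, plus strand): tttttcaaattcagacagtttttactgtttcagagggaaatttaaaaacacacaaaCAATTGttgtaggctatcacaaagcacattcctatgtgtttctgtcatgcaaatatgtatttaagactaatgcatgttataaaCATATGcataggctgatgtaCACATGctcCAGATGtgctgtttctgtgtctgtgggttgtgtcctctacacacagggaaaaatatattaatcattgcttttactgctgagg

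In these windows Col6a1 held 1 E-box, starting at base -228, Col6a2 held none but 1 GC box, and Col6a3 held neither. Col3a1 held 4 E-boxes. A promoter entry was given for 33 of the 42 collagen genes. An E-box was present in 51.5% of these 33, beside 66.1% of all 27025 promoters of that length. A GC box was present in 60.6% of the collagen promoters and 33.0% of all, and a CCAAT box (CCAAT on either strand) in 36.4% and 34.5%. A match describes letters in this window and does not show that a factor binds there.

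Of the 11 fibrillar genes, 8 were above background, Col3a1 was higher, Col5a3 was lower and 9 did not pass. Col3a1, the chain of type III collagen, read 13581.6, 15624.8 and 13656.0 in undifferentiated cells and 19997.1, 22618.9 and 20877.3 in differentiated cells. All differentiated arrays were above all undifferentiated arrays, with a log2 fold change of 0.57 (SE 0.12, adjusted p = 0.0054, limma) and a ratio of the mean signals of 1.48. Its second probe set read 1017.4, 930.5 and 1069.5 before and 2755.6, 2513.7 and 2493.2 after, a log2 fold change of 1.35 (SE 0.10), and the mean over all its probe sets gave 0.96.

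Col5a3 encodes a less widespread chain of type V collagen, which regulates fibril assembly. It read 466.9, 441.0 and 476.9 in undifferentiated cells and 293.1, 270.0 and 242.5 in differentiated cells. The groups were well separated, with a log2 fold change of -0.75 (SE 0.14, adjusted p = 0.0028, limma). With the mean over both its probe sets, the other of which was at background, the log2 fold change was -0.26 (adjusted p = 0.58).

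The chains of type I collagen, the main fibril collagen, did not pass at their brightest probe sets. Col1a1 read 7042.1, 6530.3 and 7834.5 before and 8400.3, 8958.9 and 7865.8 after (log2 fold change 0.24, SE 0.11, adjusted p = 0.20). Col1a2 had means of 13986 ± 32.6 and 14329 ± 714 (SD, 3 arrays each; log2 fold change 0.03, adjusted p = 0.91 by limma). The other type V chains also did not pass, Col5a1 with a log2 fold change of 0.04 (adjusted p = 0.86) and Col5a2 with 0.22 (adjusted p = 0.25). These results depended on the processing. After quantile normalization Col1a1 passed as higher (0.37, adjusted p = 0.045), as did Col5a2 (0.37, adjusted p = 0.042), while Col1a2 gave 0.27 (adjusted p = 0.11). With the mean over all probe sets of a gene Col5a2 (0.69, adjusted p = 0.00086) and Col5a1 (0.32, adjusted p = 0.045) passed as higher, and Col1a2 gave -0.27 (adjusted p = 0.053).

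Col2a1, the cartilage collagen, was dim throughout. It read 52.4, 25.2 and 28.6 in undifferentiated cells, all at background, and 75.4, 78.0 and 118.8 in differentiated cells, and it did not pass (log2 fold change 1.08, SE 0.44, adjusted p = 0.16, limma). Col27a1 was dim as well, between 60.8 and 138.1, with overlapping groups. Col11a1, Col11a2 and Col24a1 were not above background.

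**Figure D3:**
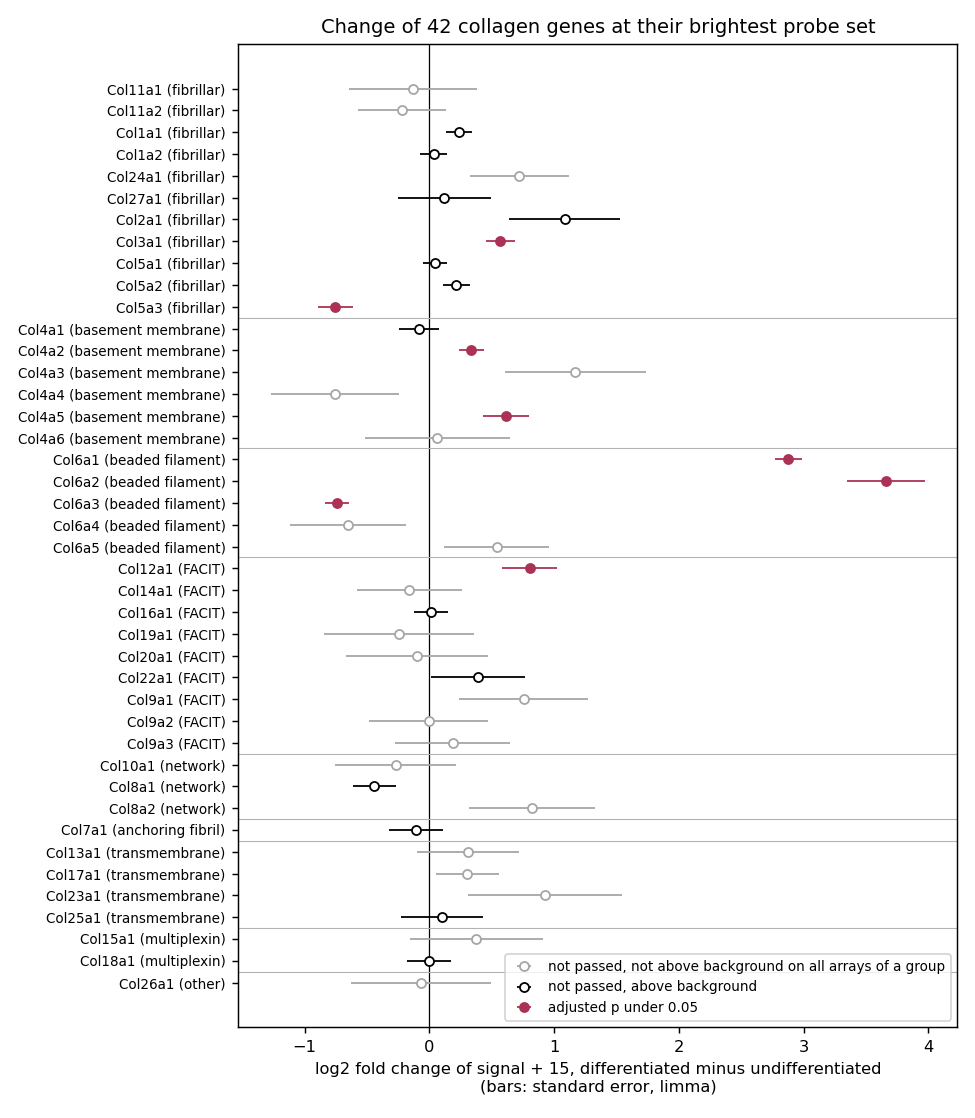
Log2 fold change of signal + 15 (differentiated minus undifferentiated) of the 42 collagen genes at their brightest probe set, with bars for the limma standard error. Filled points passed at an adjusted p under 0.05, open black points did not, and grey points were not above background on all arrays of either group. The changes of Col6a1 and Col6a2, 2.88 and 3.66, stand to the right of the rest.

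Several fibrillar genes gave another log2 fold change at their second probe set, though whether the pairs truly differ was not settled. In all 6 fibrillar genes with at least 2 probe sets above background, the dimmer second one had the larger absolute change. The second probe set of Col27a1 was kept only through its differentiated arrays. Its place in this count is therefore not independent of its change. The same held in 8 of all 12 such collagen genes, and the reason was not tested. How often the second probe set changes more over all gene pairs was not counted. These counts are therefore not read as a trait of collagens. The second probe set of Col5a2 read 472.4, 602.5 and 497.5 before and 1414.7, 1216.5 and 963.1 after, a log2 fold change of 1.16 (SE 0.15, adjusted p = 0.00013, limma). Second probe sets also passed as higher for Col5a1 (0.49, adjusted p = 0.0032) and Col1a1 (0.42, adjusted p = 0.036), and as lower for Col1a2 (-0.50, adjusted p = 0.0035).

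Whether the pair differed was tested on the log ratio of the 2 probe sets in limma, a test chosen after these values had been seen. The answer depended on how limma modelled the variance. In the form run first, with the variance trend over the mean log ratio, none of the 12 pairs passed, where 3.68% of all 4918 pairs did. That form takes no account of signal level, on which the spread of array values depends, so its count may be too low for bright genes. Modelling the variance by the mean signal of the pair, arguably the better model but added after that result was known, 4 passed, where 6.93% of all pairs did. These were Col1a2 (adjusted p = 0.00098), Col3a1 (adjusted p = 0.0020), Col5a2 (adjusted p = 0.0076) and Col5a1 (adjusted p = 0.042), with adjusted p-values of 0.11, 0.10, 0.097 and 0.17 in the first form. With no trend none passed, where 3.52% of all pairs did. Each of the 3 forms gave 6 of the 12 pairs at an unadjusted p under 0.05, but the share of all pairs at that limit was not counted. A difference between probe sets of these genes is therefore not settled here, and the changes of the type I and V chains hold only for the probe set named.

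**Figure D4:**
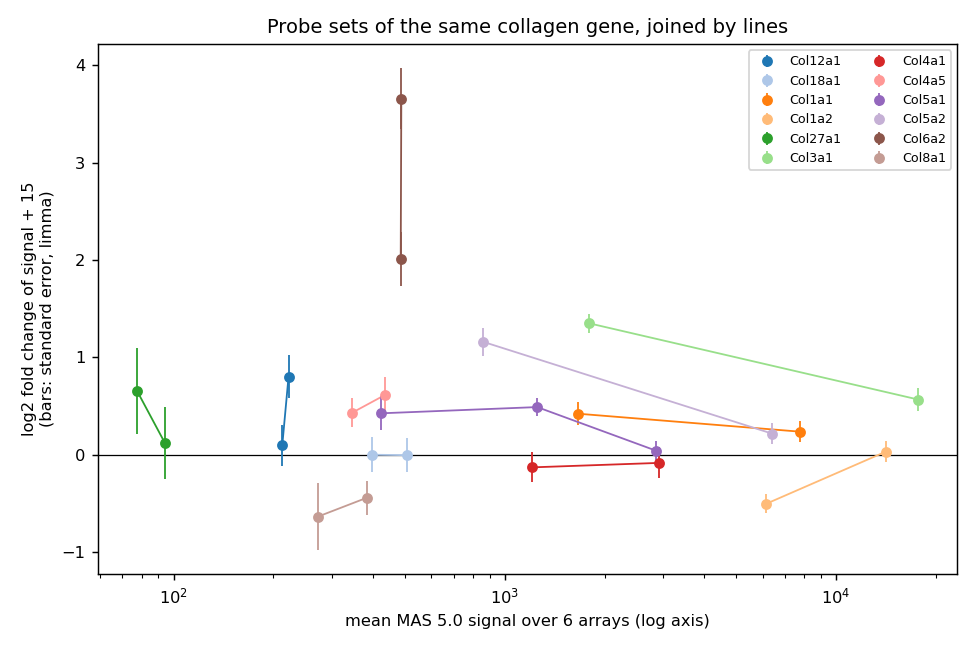
Log2 fold change (bars, limma standard error) against mean signal over 6 arrays (log axis) for the 12 collagen genes with at least 2 probe sets above background, lines joining probe sets of a gene. In Col3a1 the dimmer probe set changed by 1.35 and the brighter by 0.57, and in Col5a2 by 1.16 and 0.22.

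Of the 6 basement membrane genes, 2 were higher, none was lower and 4 did not pass. Col4a2 encodes the partner of Col4a1 in the common type IV helix. It read 1060.0, 1069.4 and 1198.6 in undifferentiated cells and 1439.0, 1477.8 and 1292.6 in differentiated cells. The groups did not overlap, but the change was small, with a log2 fold change of 0.33 (SE 0.10, adjusted p = 0.047, limma). It did not pass without undifferentiated replicate 1 (adjusted p = 0.14) or 2 (0.11), or without differentiated replicate 1 (0.15) or 2 (0.17).

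Col4a5, whose human counterpart is mutated in Alport syndrome, read 386.1, 256.6 and 381.7 before and 603.0, 561.0 and 421.9 after. The lowest differentiated array lay just above the highest undifferentiated one, with a log2 fold change of 0.62 (SE 0.18, adjusted p = 0.046, limma). It did not pass without undifferentiated replicate 1 (adjusted p = 0.054), 2 (0.15) or 3 (0.060), or without differentiated replicate 1 (0.19) or 2 (0.15). Its second probe set gave 0.43 (adjusted p = 0.094).

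Col4a1 read 3039.9, 2718.0 and 3186.1 before and 3159.5, 3412.7 and 2054.4 after (log2 fold change -0.08, adjusted p = 0.84, limma). Differentiated replicate 3 lay below all other arrays, and the groups overlapped. Col4a1 and Col4a2 are neighbours on chromosome 8. Col4a3, Col4a4 and Col4a6, the chains of more restricted basement membranes, were not above background.

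Of the 9 FACIT genes, 3 were above background and Col12a1 was higher. Col12a1, a fibril-bound collagen of tendon and muscle connective tissue, read 115.4, 163.4 and 200.7 before and 307.3, 252.7 and 294.8 after. The groups did not overlap, and the log2 fold change was 0.80 (SE 0.22, adjusted p = 0.029, limma). A second probe set of like signal gave 0.10 (adjusted p = 0.86). At its brightest probe set Col12a1 did not pass without undifferentiated replicate 1 (adjusted p = 0.098) or 2 (0.055), or without differentiated replicate 1 (0.12), 2 (0.052) or 3 (0.093).

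Col16a1 gave a log2 fold change of 0.01 between means of 410 ± 42.1 and 413 ± 29.0 (SD, 3 arrays each). Col22a1, a collagen of the myotendinous junction, read 66.9, 89.7 and 99.9 before and 65.1, 172.3 and 132.5 after, and did not pass (log2 fold change 0.39, adjusted p = 0.63, limma). A dimmer Col22a1 probe set passed as higher (1.46, adjusted p = 0.028), but its means of 6.47 and 43.9 were at background. Col9a1, Col9a2, Col9a3, Col14a1, Col19a1 and Col20a1 were not above background.

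None of the 11 genes of the other classes passed, and 4 were above background. Col8a1, a short-chain network collagen, read 452.9, 479.3 and 389.7 before and 399.7, 251.6 and 323.3 after (log2 fold change -0.44, SE 0.17, adjusted p = 0.14, limma). Col18a1, the source of endostatin, gave -0.003. Col7a1, the anchoring fibril collagen of skin, gave -0.10, and Col25a1, a transmembrane collagen, gave 0.10. Col10a1, Col8a2, Col13a1, Col17a1, Col23a1, Col15a1 and Col26a1 were not above background. Over all 21 genes that were not above background, single signals ranged from 2.2 to 167.6.

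Collagen chains are hydroxylated, folded and glycosylated in the endoplasmic reticulum, trimmed outside the cell and then crosslinked. Of 30 measured genes for these steps, 4 were higher and 5 were lower, with a median log2 fold change of 0.04. Over all named genes 8.67% were higher and 9.05% lower, and the single lists are too small to be set against these shares. In the hydroxylation list 2 of 13 were higher and 2 lower. P3h1 of this list did not pass at its brightest probe set (0.49, adjusted p = 0.37, limma). It passed as higher at another of like signal (1.08, adjusted p = 0.025). P4ha1, a catalytic subunit of prolyl 4-hydroxylase, read 1919.0, 1940.9 and 1804.9 before and 2601.6, 2654.3 and 2438.0 after (log2 fold change 0.44, adjusted p = 0.0048). P4hb, the other subunit of that enzyme and a general disulfide isomerase, moved the other way, from 8139 ± 330 to 6297 ± 245 (SD, 3 arrays each; -0.37, adjusted p = 0.020 by limma). P3h4, a part of the lysyl hydroxylase complex, gave 0.53 (adjusted p = 0.016). Ppib, cyclophilin B of the prolyl 3-hydroxylase complex, fell by 0.62 (adjusted p = 0.00060).

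Among 7 chaperone, glycosylation and export genes only Fkbp14, a folding enzyme, passed (0.52, adjusted p = 0.017). Serpinh1, the collagen chaperone HSP47, gave 0.10 (adjusted p = 0.61). In propeptide processing, Pcolce and Pcolce2, enhancers of the C-propeptide protease, were lower and 4 of 6 genes did not pass. Pcolce read 10152.5, 10532.6 and 11210.4 before and 6746.9, 6889.4 and 7429.8 after (log2 fold change -0.60, adjusted p = 0.0012, limma). Pcolce2 read 434.6, 447.9 and 375.7 before and 141.2, 87.1 and 103.9 after (-1.81, adjusted p = 5.8e-05).

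The crosslinking enzymes diverged, with 1 of 4 higher and 1 lower. Lox, lysyl oxidase, read 6259.1, 5414.7 and 5671.2 before and 3788.8, 4200.9 and 3647.5 after (log2 fold change -0.57, adjusted p = 0.0016, limma). Loxl1, a related oxidase, read 1245.5, 1352.7 and 1145.3 before and 2422.8, 2516.4 and 2239.4 after (0.93, adjusted p = 2.8e-05). Neither gene's groups overlapped.

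Of 6 collagen receptor genes at their brightest probe sets, Itga10, an integrin chain best known from cartilage, was higher, beside 8.67% of all named genes. It read 77.2, 55.9 and 62.1 before, with 1 of 3 arrays above background, and 174.0, 188.6 and 162.3 after (log2 fold change 1.25, adjusted p = 0.012, limma). Itgb1, its partner chain, gave 0.11, Ddr1 gave 0.74 (adjusted p = 0.10) and Ddr2, a receptor for fibrillar collagen, gave -0.18. None of these passed at the brightest probe set. A dimmer probe set passed as higher for Itgb1 (1.63, adjusted p = 0.0015, limma) and for Ddr1 (0.58, adjusted p = 0.027). The further probe sets of both genes did not pass. Itga1 and Itga2 were not above background.

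**Figure D5:**
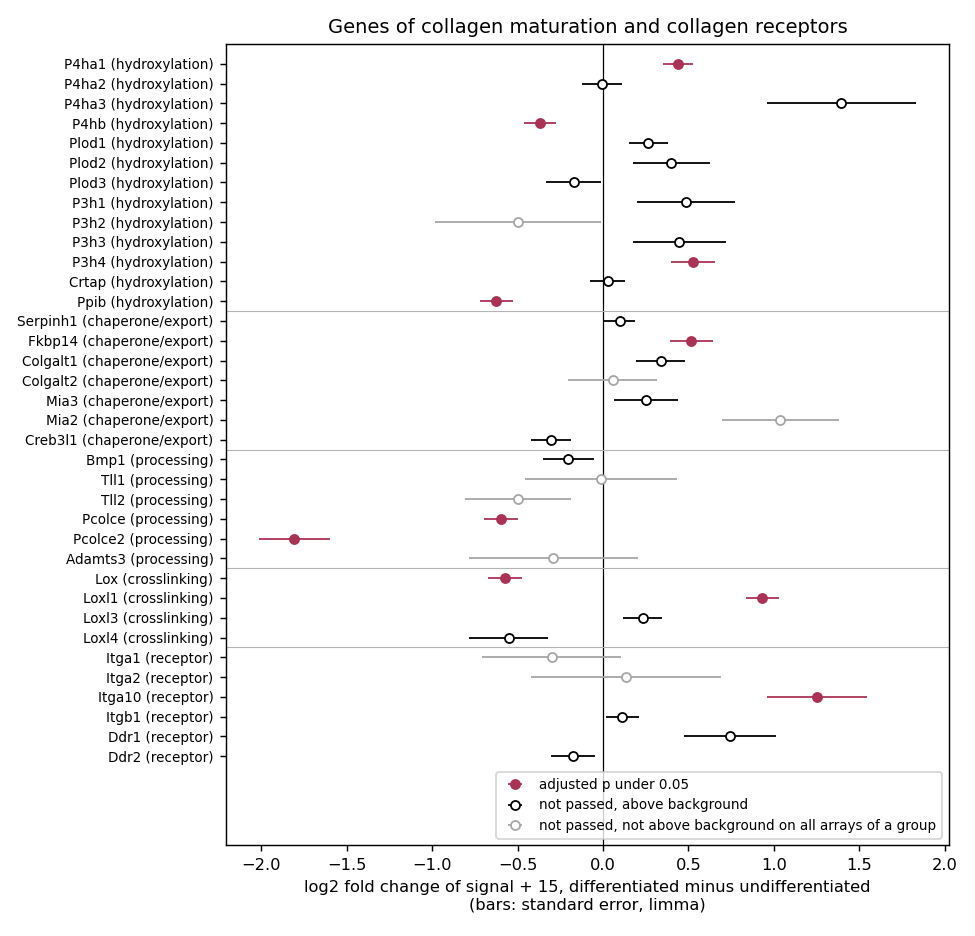
Log2 fold change of signal + 15 (bars, limma standard error) for the measured genes of collagen maturation and the collagen receptors, at the brightest probe set. Filled points passed, 4 of 30 maturation genes as higher and 5 as lower. Pcolce2, at -1.81, lies furthest to the left.

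Markers of other cell types that make collagen were read on the same arrays. Of 9 fibroblast markers measured, Pdgfra, Pdgfrb and Pdpn were higher and Twist2 was lower, while Thy1, Dpt, Lum and Fap were not above background and Tcf21 did not pass. Pdgfra was above background on only 2 of 3 undifferentiated arrays. Its second probe set did not pass (log2 fold change 0.47, adjusted p = 0.46, limma). Pdgfrb, a growth factor receptor of fibroblasts and pericytes, read 390.5, 413.7 and 454.0 before and 1149.3, 916.4 and 1386.7 after (log2 fold change 1.41, adjusted p = 2.4e-05, limma). Twist2 fell by 1.91 on the log2 scale. The summed signal of the fibroblast list was 3928 to 4408 in undifferentiated and 5113 to 5963 in differentiated cells. Most of it came from Pdpn, with 2522 to 2984 before and 3195 to 3996 after, so the sum does not show a rise across the list. The part of such cells in the collagen changes was not tested. None of 7 chondrocyte and osteoblast markers and none of 4 endothelial markers passed, and Pparg, which was lower, was the only 1 of 4 adipocyte markers that did.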

How the data were processed

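Transcript levels were measured on 6 arrays. The authors deposited MAS 5.0 signals, which are intensity values on a linear scale. The authors' later GCRMA values need probe-level data, which were not used here. The 64 Affymetrix controls were left out. Log2(signal + 15) was tested by lmFit and eBayes with trend (limma 3.58.1, R 4.3.3), differentiated minus undifferentiated, 2-sided, with Benjamini-Hochberg adjustment over 45037 probe sets, and all adjusted p-values are from limma. Figures and motif counts used Python 3.11.15. A gene was read at its brightest probe set, the one with the highest mean over 6 arrays. All collagen genes were accounted for, those above background with values, and of the other lists up to 4 passing genes were named, with the further genes named beside them chosen after their values were seen. Members, lists and the background limit were chosen with earlier results of these data known. The number of arrays limits the precision, and the labels call the arrays biological replicates. Alternatives were other scalings, pseudocounts, filters and tests, a replicate block and each array left out.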

Additional observations from a re-analysis of the deposited data

How the results depend on the processing

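Col6a1 and Col6a2 kept their direction and passed under all 16 alternatives, with log2 fold changes of 2.79 to 2.96 and 2.83 to 4.10. Col6a3 failed only with eBayes without trend (adjusted p = 0.054), Col3a1 there (adjusted p = 0.11) and under the 1.5-fold rule, and Col5a3 there (adjusted p = 0.051) and with the mean over all probe sets. Col4a2 failed in 10, Col4a5 in 9 and Col12a1 in 7 of 16. Calls were gained for Col1a1 and Col5a2 after quantile normalization (0.37 each), and for Col5a1 and Col5a2 with the mean over all probe sets (0.32 and 0.69). Col2a1 passed with dim probe sets left out (adjusted p = 0.046), but that filter kept it only through its differentiated arrays. Its call there is therefore not independent of the difference tested. No called change reversed. The counts that follow have no share over all genes or probe sets under the same setting beside them. A loss of calls over the whole array can therefore not be told from one among these genes. With eBayes without trend, collagen genes numbered 2 higher and 0 lower (main 6 and 2). Collagen probe sets numbered 6 higher and 0 lower (main 12 and 3), and maturation genes 1 lower (main 5). The mean over all probe sets of a gene gave 1 collagen gene lower. A change of at least 1.5-fold left 1 maturation gene higher (main 4) and 3 lower. Leaving out 1 array at a time gave 3 to 5 collagen genes higher and 2 lower, 7 to 11 probe sets higher and 3 lower, and 2 to 5 maturation genes higher and 4 to 5 lower. The collagen genes higher numbered 3 without undifferentiated replicate 1 or 2 or differentiated replicate 1 or 2. The variance model of the probe-set pair test gave 0 pairs over the mean log ratio, 4 over the mean log2 signal and 0 with no trend, the last 2 added after the data were seen. With a replicate block, 5 collagen genes were higher and 2 lower, 9 probe sets higher and 3 lower, and 4 maturation genes higher and 5 lower. Same-numbered arrays deviated together only weakly (r 0.053, 0.021 and 0.019 across probe sets, each the highest for its array), so the numbers were not taken as pairs. Probe sets near background, such as Col2a1 and the undifferentiated Col6a2, limit what can be said of their fold.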
